A study of Homo sapiens with 4 samples.

Results

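The genes described here are 9 that act on the plasmin and metalloproteinase side of matrix breakdown: the plasminogen activators PLAU (urokinase, uPA) and PLAT (tissue-type activator, tPA), the urokinase receptor PLAUR, the serpin SERPINE2, the metalloproteinases MMP1, MMP2 and MMP14, and the metalloproteinase inhibitors TIMP1 and TIMP2. They were found by gene name from a list drawn up with earlier results of these data known, and make up 9 of the 51103 genes in the deposited tables. Each had exactly 1 row. Their levels were compared between 2 libraries of cells with REEP6 overexpression and 2 negative control libraries (labelled NC) of the human line SCC-15, which the labels describe as oral squamous cell carcinoma (OSCC). Overexpression was set up with a lentivirus, and the labels name neither the promoter that drives REEP6 nor the vector of the control. REEP6 codes for a membrane protein of the endoplasmic reticulum, and the series asks which genes respond to it. Polyadenylated RNA was taken after 48 hours in culture plates, with the starting point of that time not stated. The labels do not say that the 2 libraries of a group came from separate cultures. A p-value here therefore reflects the spread between libraries alone, which may be technical.

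Urokinase and tissue-type activator are serine proteases that cut the inactive precursor plasminogen into plasmin, a broad protease that dissolves fibrin and matrix glycoproteins and can activate some metalloproteinase precursors. Urokinase works mostly on the cell surface, held by its receptor, and is stopped by serpins, which trap a protease in a covalent complex. Matrix metalloproteinases are zinc enzymes that are made as inactive precursors, and TIMPs bind their active sites. In oral squamous carcinoma this system is studied for its part in invasion.

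The libraries held between 12856256 and 15208629 counts assigned to genes. REEP6 itself had 348 and 468 counts in the controls and 649 and 680 with overexpression, a 1.76-fold rise (edgeR quasi-likelihood test, Benjamini-Hochberg adjusted p 0.00119). The labelled cell type was checked against marker lists. Of 16 squamous markers, 15 stayed below 1 FPKM (the authors' count per gene length and library total) in every library, among them KRT5, KRT14 and TP63, and the epithelial cadherin CDH1 reached at most 0.0122 FPKM. The simple keratins KRT8 (164 to 183 FPKM) and KRT18 (178 to 231 FPKM) were high (their genes overlap on opposite strands), and of 10 neuroendocrine markers 7 passed the filter, with the secretogranin gene SCG2 at 172 to 371 FPKM. The squamous markers other than S100A2 were thus absent or near 0 in all 4 libraries labelled SCC-15. S100A2 had 6.25 and 3.78 FPKM in the controls and 10.3 and 6.43 FPKM with REEP6, and was not called (edgeR adjusted p 0.0721).

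With REEP6 overexpression the urokinase gene PLAU fell 2.87-fold and the serpin gene SERPINE2 fell 1.69-fold. The receptor gene PLAUR, the gelatinase gene MMP2 and both TIMP genes differed from the control by 1.08-fold to 1.19-fold and were not called. PLAT, MMP1 and MMP14 were at or near 1 FPKM or below it and could not be compared with the same precision. A gene was tested when it had at least 1 FPKM in at least 2 of the 4 libraries, which 6 of the 9 genes passed, each with at least 1 FPKM in all 4. A gene was called at an adjusted p of 0.05 in edgeR's quasi-likelihood test over 13077 genes. Of the 6, 2 were called lower and 0 higher, where 14.2% of all genes tested were called lower, 10.9% higher and 25.1% in either direction. With FPKM scaled to equal sums the calls over all genes were 2824 lower and 661 higher, in place of 1854 and 1422, and the median gene then stood at -0.14 on the log2 scale. The median log2 fold change of the 6 was -0.23, against -0.01 over all genes tested. In FPKM, both REEP6 libraries lay below both controls for 35.3% of all genes tested and above both for 28.2%. The groups overlapped for 36.5%, so groups without overlap were common among all genes. In bulk RNA, fewer cells that express a gene and less RNA per cell cannot be told apart.

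**Figure D1:**
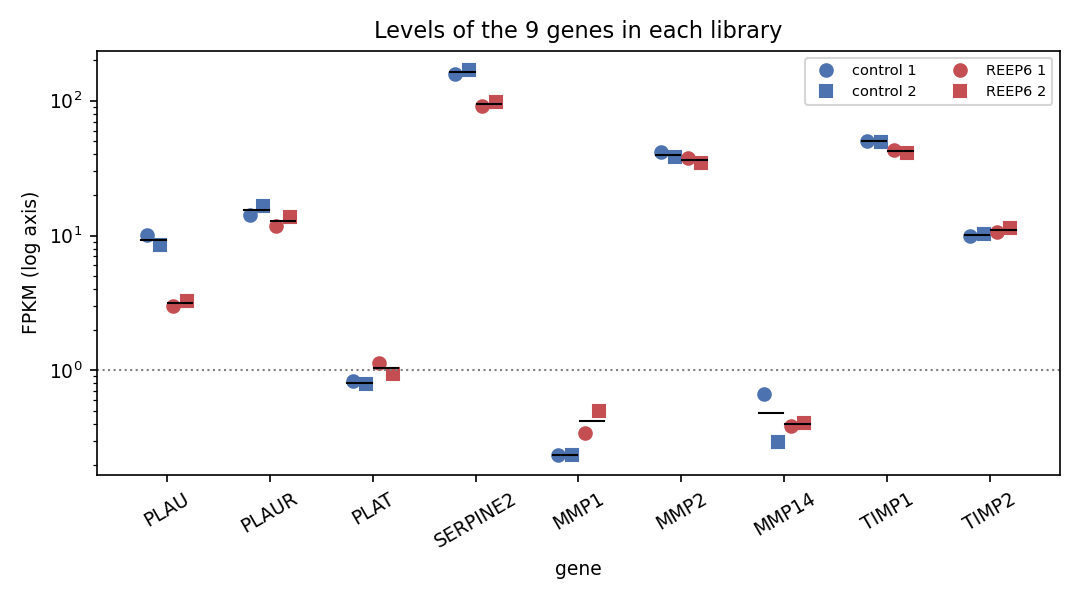
FPKM of the 9 genes (log axis) in each library, with circles for replicate 1, squares for replicate 2, blue for the control and red for REEP6, and a black line at each group mean (n = 2). The dotted line marks 1 FPKM. PLAU and SERPINE2 show a gap between the groups, and PLAT, MMP1 and MMP14 sit at or near the line or below it.

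PLAU (ENSG00000122861, chromosome 10, 73909177 to 73917497, plus strand, GRCh38) codes for the secreted activator that the receptor holds on the cell surface. It had 380 and 381 counts in the controls and 118 and 129 with REEP6. In FPKM these were 10.0 and 8.49 against 3.02 and 3.29. Both control libraries were higher than both REEP6 libraries, as for 35.3% of all genes tested. The gap was wider than the difference within either pair. Group means were 9.26 ± 1.08 and 3.15 ± 0.188 FPKM (SD, n = 2), and the log2 fold change was -1.52 ± 0.157 (SE; 95% interval -1.88 to -1.17; edgeR adjusted p 0.000467). Of all genes tested, PLAU ranked 79 by p. PLAU was called lower in all 15 alternative settings, with a log2 fold change between -1.66 and -1.30. The antisense gene C10orf55 shares 916 of the 2950 exon bases of PLAU and had 2 to 7 counts per library, so reads of the 2 genes over the shared bases cannot be told apart unless the counting used strand, which the sources used here do not state.

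PLAUR (ENSG00000011422, chromosome 19, 43646095 to 43670547, minus strand) codes for the receptor, a surface protein with a lipid anchor. The controls held 14.3 and 16.4 FPKM of it, the REEP6 libraries 11.8 and 13.6 FPKM. Control replicate 1 and REEP6 replicate 2 lay close together, so the groups were separated by less than the spread within each pair. The log2 fold change was -0.25 ± 0.110 (SE; 95% interval -0.49 to -0.0013), and PLAUR was not called (edgeR adjusted p 0.127). It was called lower without control replicate 1 (log2 fold change -0.35, edgeR adjusted p 0.0428), whereas the value was -0.11 without control replicate 2 and -0.16 without REEP6 replicate 1. It was also called with FPKM scaled to equal sums (-0.38, where the median of all genes was -0.14) and after a correction for GC content (-0.41).

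PLAT (ENSG00000104368, chromosome 8, 42175233 to 42207724, minus strand), the gene of the activator that works best on fibrin, was the weaker of the 2 activator genes in every library. It had 71 and 79 counts in the controls and 100 and 83 with REEP6, or 0.834, 0.785, 1.14 and 0.943 FPKM. Only REEP6 replicate 1 reached 1 FPKM, so PLAT was not tested with the other genes. Without a filter on low values its log2 fold change was 0.41 ± 0.237 (SE; 95% interval -0.056 to 0.87; edgeR adjusted p 0.319). The level of PLAU per length was 12 and 10.8 times that of PLAT in the controls and 2.65 and 3.49 times with REEP6.

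SERPINE2 (ENSG00000135919, chromosome 2, 223975112 to 224039319, minus strand), also named protease nexin-1, codes for a secreted serpin that inhibits thrombin, urokinase and plasmin. It was the most abundant of the 9 per length and stood at rank 164 of the 51103 genes by mean control FPKM. Its counts were 17960 and 22844 in the controls, against 10778 and 11580 in the REEP6 libraries, which are 157, 169, 91.6 and 97.9 FPKM in the same order. The groups did not overlap, with REEP6 lower, as for 35.3% of all genes tested. The libraries of a group lay close to each other. The mean was 163 ± 8.36 FPKM in the controls and 94.7 ± 4.47 FPKM with REEP6 (SD, n = 2). On the log2 scale SERPINE2 fell by 0.76 ± 0.0873 (SE; 95% interval -0.95 to -0.56; edgeR adjusted p 0.000733). SERPINE2 was called lower in all 15 alternative settings, between -0.89 and -0.68 on the log2 scale.

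**Figure D2:**
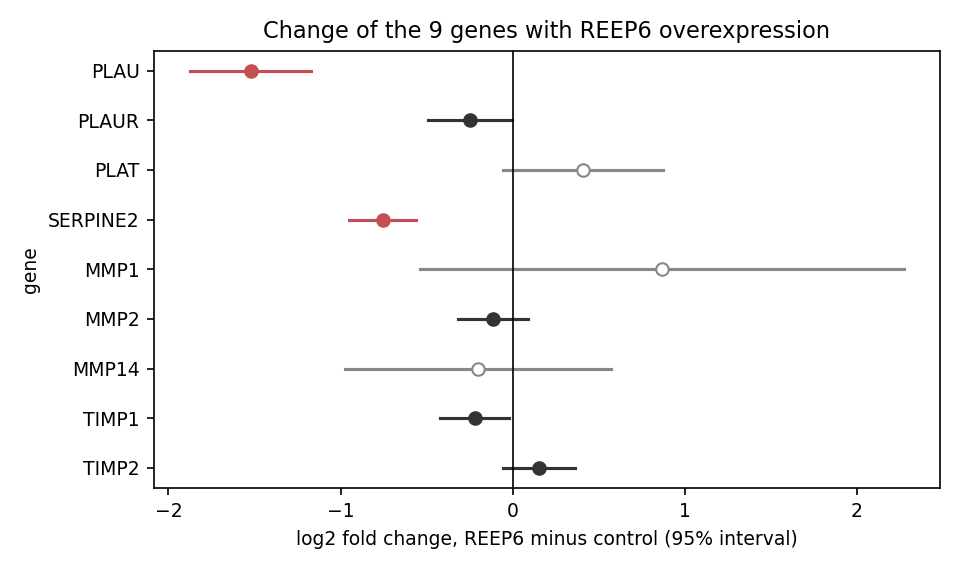
Log2 fold change of each gene (x axis, REEP6 minus control) with its 95% interval, in red where called and black where not. Open grey points (PLAT, MMP1, MMP14) come from the fit without a filter on low values. The intervals of PLAU (-1.88 to -1.17) and SERPINE2 (-0.95 to -0.56) lie furthest below 0, and that of MMP1 is the widest, from -0.54 to 2.27.

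The bases upstream of the start sites of PLAU, SERPINE2 and PLAUR are shown because the first 2 genes fell and the third is the receptor gene that was not called. RefSeq promoter windows (GRCh38.p14) were matched for 5 of the 9 genes, with 7 windows, and the 250 bases before each start site were searched on both strands for TGACTCA (the AP-1 site), GGGCGG (the GC box), CCAAT (the CCAAT box) and AGGAAG (an ETS site). PLAT, MMP1, MMP2 and TIMP2 had no entry. Among 35116 windows of the same length, 4.2% held the AP-1 letters, 42.6% the GC box, 32.0% the CCAAT box and 28.7% the ETS letters. The SERPINE2 stretch (chr2:224031479-224031728, minus strand) is the whole window before the downstream start site and overlaps no exon of GENCODE release 29. The PLAU stretch (chr10:73911081-73911110, plus strand) and the PLAUR stretch (chr19:43670337-43670366, minus strand) are 30 bases each, from windows of which all 250 bases lie in exons that GENCODE release 29 annotates on either strand. Capitals mark matches on either strand.
SERPINE2: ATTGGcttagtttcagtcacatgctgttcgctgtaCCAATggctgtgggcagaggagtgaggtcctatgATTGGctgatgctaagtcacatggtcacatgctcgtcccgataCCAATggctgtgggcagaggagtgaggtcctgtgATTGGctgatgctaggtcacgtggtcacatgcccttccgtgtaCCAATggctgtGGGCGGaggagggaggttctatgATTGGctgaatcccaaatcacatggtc
PLAU: GGGCGGcgccgGGGCGGgccctgatataga
PLAUR: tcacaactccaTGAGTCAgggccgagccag

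The printed SERPINE2 window held 7 CCAAT boxes and 1 GC box, and the window before its upstream start site held 2 GC boxes. The 7 lie in a stretch that recurs within the window with small changes, so they are not independent matches. The 32.0% for the CCAAT box counts windows with at least 1 match and is no base for a count of 7. The window of PLAU from which the stretch comes held 3 GC boxes and 1 ETS match, and the window before the upstream PLAU start site held 1 CCAAT box. The AP-1 letters were found in the PLAUR window, once, and in none of the windows of PLAU, SERPINE2, MMP14 and TIMP1. A match is a run of letters, not a measured binding site.

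**Figure D3:**
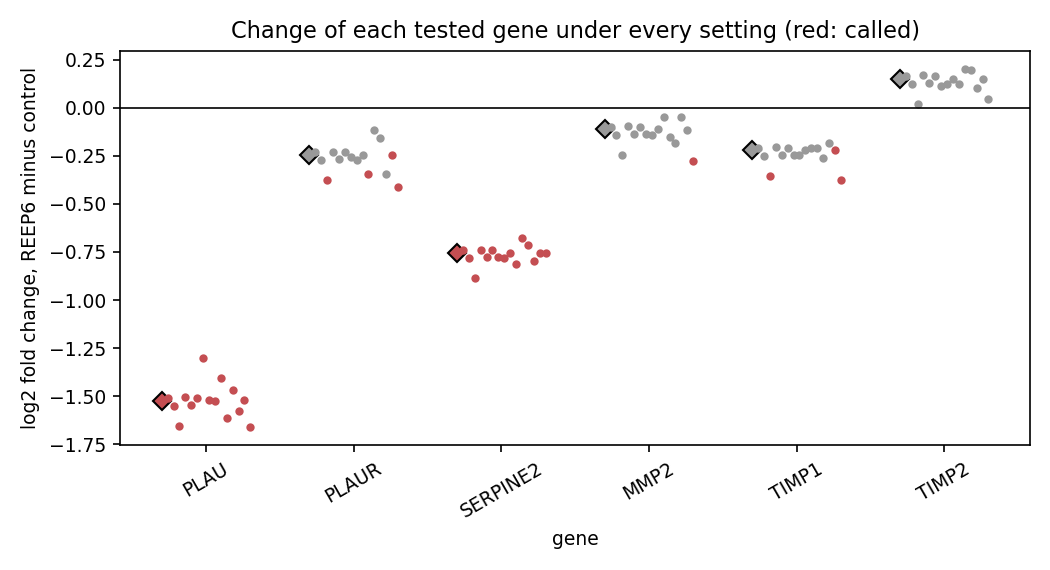
Log2 fold change (y axis, REEP6 minus control) of the 6 tested genes under the reported fit (diamond) and 15 alternative settings (circles), in red where called. All points of PLAU lie between -1.66 and -1.30 and all of SERPINE2 between -0.89 and -0.68, all red, while PLAUR has 4 red circles, TIMP1 has 3, MMP2 has 1 and TIMP2 has 0.

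Because urokinase acts through its receptor and is held in check by serpins, the levels per length were set against each other within each library. PLAU stood at 0.701 and 0.517 of the level of PLAUR in the controls and at 0.255 and 0.242 with REEP6. Both control libraries thus had a higher PLAU to PLAUR ratio than both REEP6 libraries. SERPINE2 exceeded PLAU in every library, 15.7-fold and 19.9-fold in the controls and 30.3-fold and 29.8-fold with REEP6, although both genes fell. SERPINE2 lay above PLAUR 11-fold and 10.3-fold in the controls, and 7.74-fold and 7.19-fold in the REEP6 libraries. These ratios are given as a description, and no test of them was run.

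**Figure D4:**
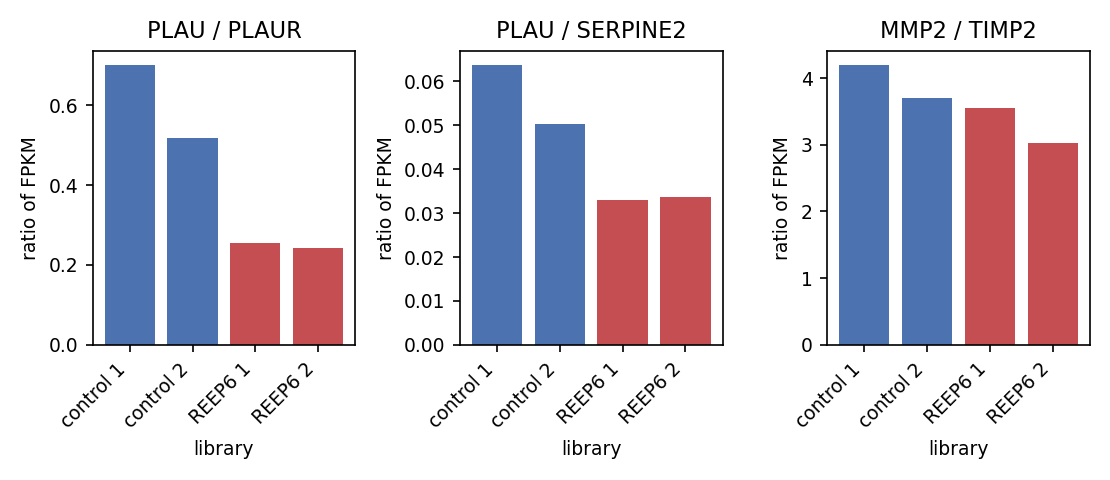
Ratios of FPKM within each library (bars from 0; blue control, red REEP6) for PLAU to PLAUR, PLAU to SERPINE2 and MMP2 to TIMP2. The first goes from 0.701 and 0.517 to 0.255 and 0.242, the second from 0.0638 and 0.0503 to 0.033 and 0.0336, and the third from 4.2 and 3.70 to 3.55 and 3.03. In each panel shown both control bars stand above both REEP6 bars, and how common this is among other gene pairs was not computed. PLAUR, MMP2 and TIMP2 were not called. Of the planned ratios not drawn, MMP1 to TIMP1 went the other way, from 0.00467 and 0.00471 to 0.008 and 0.012, with 6 to 13 counts of MMP1 per library. MMP14 to TIMP2 overlapped between the groups.

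Of 29 other genes of the plasminogen system and of clotting 15 were tested, with 1 higher, 2 lower and 12 not called. The share called was near the 25.1% among all genes tested. The median log2 fold change of the 15 was 0.13. PLG, the gene of plasminogen itself, which the liver supplies to the blood, had no count in any library. The gene of tissue factor pathway inhibitor, TFPI, fell 1.64-fold, from 17.3 ± 1.82 to 10.4 ± 0.250 FPKM (SD, n = 2; edgeR adjusted p 0.00129). The thrombin receptor gene F2R fell 1.28-fold (edgeR adjusted p 0.0211), but its call ended without control replicate 2 (adjusted p 0.101), without REEP6 replicate 1 (0.154) and with limma on log2(FPKM + 1) (0.057). F12, the gene of coagulation factor XII, rose 2.61-fold, from 0.758 and 0.950 FPKM to 2.02 and 2.39 FPKM. It was the only gene of the list called higher and passed the filter through the REEP6 libraries only, so that among the genes tested it had to be higher there.

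MMP2 (ENSG00000087245, chromosome 16, 55389700 to 55506691, plus strand) codes for gelatinase A, which cuts denatured collagen and type IV collagen. It had 2646 and 2856 counts in the controls and 2459 and 2276 with REEP6, or 41.7, 38.1, 37.7 and 34.7 FPKM. The FPKM of control replicate 2 and REEP6 replicate 1 nearly touched, and on counts scaled by TMM (the trimmed mean of M values, edgeR's library scaling) the groups overlapped. The log2 fold change was -0.11 ± 0.0907 (SE; 95% interval -0.32 to 0.090; edgeR adjusted p 0.391). MMP2 was called lower after the correction for GC content alone (-0.28, edgeR adjusted p 0.0471). Its value without control replicate 1 and without REEP6 replicate 2 was -0.05 in each case. MMP2 shares 174 of its 4933 exon bases with AC007336.3 on the same strand, which had 2 to 7 counts per library.

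MMP14 (ENSG00000157227, chromosome 14, 22836557 to 22849027, plus strand) codes for the membrane-type metalloproteinase MT1-MMP, which activates the MMP2 precursor at the cell surface in a complex with TIMP2. It had 38 and 20 counts in the controls and 23 and 24 with REEP6. The 2 control libraries, at 0.662 and 0.295 FPKM, lay on either side of the REEP6 libraries, at 0.389 and 0.404 FPKM. Without a filter on low values its log2 fold change was -0.20 ± 0.394 (SE; 95% interval -0.97 to 0.57), an interval that takes in both directions.

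MMP1 (ENSG00000196611, chromosome 11, 102789920 to 102798160, minus strand), the interstitial collagenase that opens fibrillar collagen, had the lowest FPKM of the 9 in every library but REEP6 replicate 2. MMP14 was lower there, at 0.404 FPKM. The counts of MMP1 were 6 and 7 in the controls, against 9 and 13 in the REEP6 libraries, or 0.237, 0.234, 0.345 and 0.496 FPKM. Both REEP6 libraries were higher than both controls, as for 28.2% of all genes tested, though MMP1 itself was not tested with them. The difference was not detectable at this depth (log2 fold change 0.87 ± 0.717 SE without a filter on low values, 95% interval -0.54 to 2.27, edgeR adjusted p 0.572). The antisense gene WTAPP1 shares 150 of the 1970 exon bases of MMP1.

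MMP2 made up most of the mRNA of the MMP genes per length. Of the summed FPKM of 23 MMP genes, chosen for summing after their values were seen, it took 87.8% and 88.2% in the controls, against 86.3% and 84.5% in the REEP6 libraries. Of the 20 other MMP genes 15 had a count in some library and 1 was tested, MMP24, a membrane-type enzyme with 1.69 and 1.53 FPKM in the controls and 2.12 and 2.33 FPKM with REEP6, which was not called (edgeR adjusted p 0.0821).

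TIMP1 (ENSG00000102265, chromosome X, 47582313 to 47586789, plus strand) codes for a secreted inhibitor of most soluble metalloproteinases. It had 50.7 and 49.6 FPKM in the controls and 43.1 and 41.3 FPKM with REEP6. The groups did not overlap, with REEP6 lower, as for 35.3% of all genes tested. The spread within each group was small, with means of 50.2 ± 0.745 and 42.2 ± 1.33 FPKM (SD, n = 2). The log2 fold change was -0.22 ± 0.0895 (SE; 95% interval -0.42 to -0.021), and TIMP1 was not called (edgeR adjusted p 0.0984). With FPKM scaled to equal sums it was called lower (-0.35, edgeR adjusted p 0.0215), as it was after the correction for GC content (-0.38, 0.0171). TIMP1 lies within SYN1 on the opposite strand, but the 2 genes share 0 exon bases.

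TIMP2 (ENSG00000035862, chromosome 17, 78852977 to 78925387, minus strand) codes for the inhibitor that also bridges MMP14 and the MMP2 precursor. It was the only tested member with a positive change, at 9.94 and 10.3 FPKM in the controls and 10.6 and 11.4 FPKM with REEP6. The change was 0.15 ± 0.0931 (SE) on the log2 scale with a 95% interval of -0.058 to 0.36, and it was not called (edgeR adjusted p 0.263) in any of the 15 alternative settings. Per length, MMP2 exceeded TIMP2 4.2-fold and 3.70-fold in the controls, and 3.55-fold and 3.03-fold in the REEP6 libraries. The control ratios of MMP14 to TIMP2 were 0.0666 and 0.0286, a wider range than the REEP6 values of 0.0367 and 0.0353, which fell between them. Of its 5633 exon bases TIMP2 shares 367 with the antisense gene AC022966.1, which had 0 counts in every library. It shares 198 with CEP295NL on the same strand, which had 9 to 17 counts per library.

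Both remaining TIMP genes were called, in opposite directions. TIMP3, which codes for the inhibitor bound to the matrix, fell 1.61-fold, from 219 and 233 FPKM to 134 and 141 FPKM (edgeR adjusted p 0.000896). TIMP4 rose 1.68-fold, from 4.76 and 4.62 FPKM to 6.73 and 8.70 FPKM (edgeR adjusted p 0.0199), and its call ended without REEP6 replicate 2 (adjusted p 0.158) and after the correction for GC content (0.0575). TIMP3 was 77.0% and 78.3% of the summed FPKM of the 4 TIMP genes in the controls and 68.9% and 69.6% with REEP6. The share of TIMP1 was 17.8% and 16.7% in the controls, against 22.2% and 20.4% in the REEP6 libraries. The sum itself was 284.5 and 297.3 FPKM in the controls and 194.7 and 202.0 FPKM with REEP6, lower in both REEP6 libraries. The sums and shares were chosen after the values were seen.

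TIMP3 and TIMP4 belong to a list of 12 other inhibitors and activators of metalloproteinases, of which 9 were tested, with 2 higher, 2 lower and 5 not called, beside 10.9% higher and 14.2% lower among all genes tested. PCSK7, a proprotein convertase gene, fell 1.53-fold, a call that limma did not make on log2(FPKM + 1) values (adjusted p 0.0833 by limma). The tetraspanin gene TSPAN14 rose 1.34-fold, a call that ended in 6 of the 15 alternative settings, among them without control replicate 1 (edgeR adjusted p 0.0612), without REEP6 replicate 2 (0.118), with FPKM scaled to equal sums (0.076) and with limma on log2(FPKM + 1) (0.111). FURIN, whose product cuts the precursor of MMP14, was at 28.6 and 27.7 FPKM in the controls and 26.2 and 21.4 FPKM with REEP6 and was not called.

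Among the related ADAM and ADAMTS proteases 11 of 28 were tested, and 3 were higher, 4 lower and 4 not called, beside the same 10.9% and 14.2%. ADAM10, the alpha-secretase and Notch sheddase, fell 1.59-fold and ADAM9 fell by the same factor, with edgeR adjusted p of 0.000971 and 0.00108. ADAMTS9 fell 2.19-fold, from 6.99 and 5.37 FPKM to 2.72 and 2.81 FPKM. ADAM19 rose 1.91-fold, from 2.85 and 2.72 FPKM to 5.11 and 5.33 FPKM. Without control replicate 1 the counts were 1 higher and 3 lower. Of 34 other pericellular proteases and inhibitors 13 were tested, with 1 higher, 1 lower and 11 not called, again beside 10.9% and 14.2%. The member that rose was the collagen chaperone gene SERPINH1, a serpin without known protease inhibition (1.31-fold; edgeR adjusted p 0.00898). Its call ended with FPKM scaled to equal sums (adjusted p 0.0558) and after the correction for GC content (0.0622). The member that fell was the lysosomal protease gene CTSL (1.32-fold; edgeR adjusted p 0.0244), a call that ended without REEP6 replicate 2 (adjusted p 0.203) and with limma on log2(FPKM + 1) (0.0595).

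**Figure D5:**
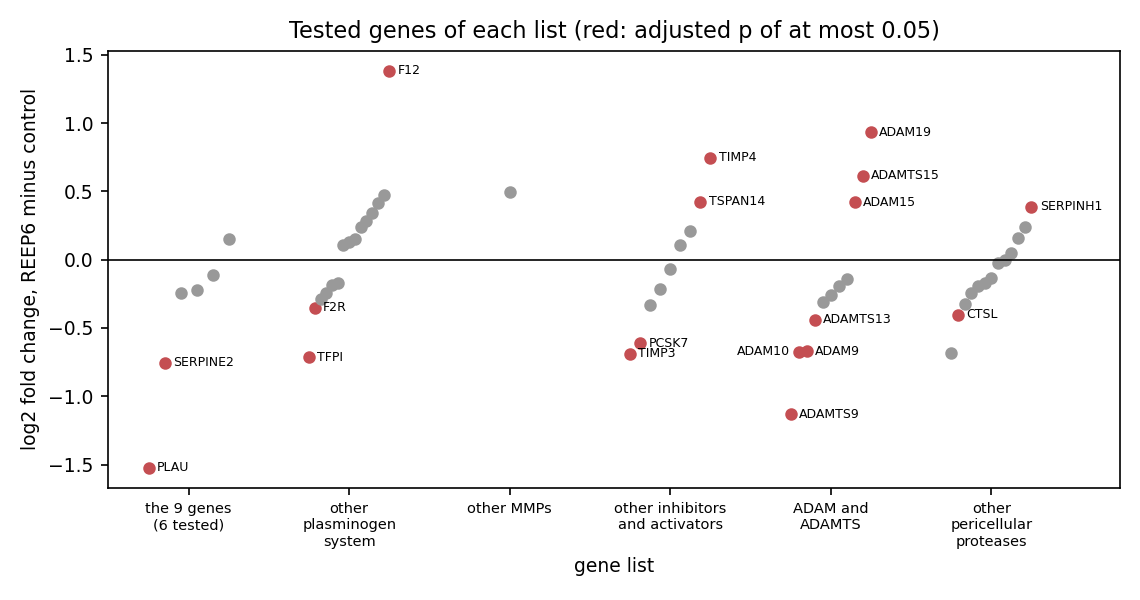
Log2 fold change (y axis, REEP6 minus control) of every tested gene in 6 lists (x axis), in red with its name where the edgeR adjusted p was at most 0.05 and in grey otherwise. Each list other than the MMP genes and the 9 genes has called genes on both sides of 0, and PLAU is the lowest point at -1.52.

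Markers of other cell types were read beside these changes. Their counts of calls stand beside 10.9% higher and 14.2% lower among all genes tested. Without a filter on low values 1984 of 29161 genes were called higher and 2026 lower. Of 10 fibroblast markers 4 were tested and called lower with REEP6: LUM fell 6.07-fold, POSTN 4.29-fold, COL3A1 1.63-fold and PDGFRB 1.63-fold. POSTN passed the filter through the controls only, so among the genes tested it had to be lower with REEP6. PDGFRA, which was not tested, lay the other way, with 83 and 105 counts in the controls and 127 and 137 in the REEP6 libraries. Without a filter on low values 9 fibroblast markers were tested, with 1 higher and 4 lower. The COL3A1 and LUM calls held in every alternative setting run. The PDGFRB call ended without control replicate 1 (edgeR adjusted p 0.0747) and without REEP6 replicate 1 (0.0902), and with limma on log2(FPKM + 1) (0.0947). Summed over the 10 markers, the controls had 36.6 and 34.5 FPKM, the REEP6 libraries 18.3 and 18.1 FPKM. FAP had no count in any library, and COL1A2, DCN and THY1 reached at most 0.0418, 0.0102 and 0.0127 FPKM, so these 4 markers were at or near 0 in both groups. Of 10 general epithelial markers 4 were tested, with 1 higher, 0 lower and 3 not called. KRT18 rose 1.28-fold (edgeR adjusted p 0.0123). Its call ended in 5 of the 15 alternative settings, among them without REEP6 replicate 2 (log2 fold change 0.33) and with FPKM scaled to equal sums (adjusted p 0.0961). KRT8 (1.08-fold, edgeR adjusted p 0.392), KRT7 (1.13-fold, 0.153) and EPCAM (1.83-fold, 0.055) were not called. Without a filter 4 of the 10 general epithelial markers were higher and 0 lower, and values of 2 that were below 1 FPKM in every library were 17 and 19 counts against 41 and 39 for CLDN4, and 13 and 13 counts against 47 and 35 for ESRP1. Of 6 endothelial markers 0 passed the filter, and all 6 were below 1 FPKM in every library. PECAM1, at most 0.331 FPKM, had 33 and 31 counts in the controls and 4 and 5 in the REEP6 libraries. KDR had no count, and CDH5, VWF, TEK and CLDN5 had at most 2, 1, 3 and 9 counts in any library. Without a filter 5 endothelial markers were tested, with 1 lower and 0 higher. Of 8 leukocyte markers 1 was tested, LYZ at 1.23 to 2.46 FPKM, and it was not called (edgeR adjusted p 0.846). The other 7 were below 1 FPKM in every library. Of the neuroendocrine markers SCG2 fell 2.00-fold and SCG3 1.39-fold while ENO2 rose 1.48-fold, a call lost when REEP6 replicate 2 was left out (edgeR adjusted p 0.144) and by limma on log2(FPKM + 1) (0.0515). The other 4 tested were not called, and the median log2 fold change of the 7 was -0.02. The summed FPKM of that list was 501.5 and 501.4 in the controls, against 314.0 and 284.1 in the REEP6 libraries, with SCG2 alone at 363 and 371 against 188 and 172. The part of these marker lists in the changes of PLAU and SERPINE2 was not tested.

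By pattern over the 4 libraries, the genes closest to PLAU, the member with the smallest p, were the pseudogene GOLGA6L5P (1.70, 1.43, 0.484 and 0.559 FPKM in the order of control replicates 1 and 2 and REEP6 replicates 1 and 2), the collagen-binding integrin gene ITGA11 (6.04, 5.16, 2.02 and 2.03 FPKM) and the interferon-induced gene IFIT3 (11.6, 9.27, 3.63 and 3.93 FPKM). GOLGA6L5P passed the filter through the controls only, so among the genes tested it had to be lower with REEP6. The measure was the root mean square difference in log2 CPM (count relative to the library total) centred on each gene's mean over 4 libraries, which was 0.0276, 0.0543 and 0.055.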

How the data were processed

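Polyadenylated RNA of 4 libraries was analysed (2 control, 2 REEP6). The authors deposited 1 table per library, in which each of 51103 genes has its count, not normalized, and its FPKM. The submitters' processing notes list HISAT2, HTSeq 0.13.5 and the build GRCh38 without saying what each was used for. Annotation, strand setting and treatment of ambiguous reads: not given in the sources used here. Dividing count by FPKM and by the count total gave 1 length per gene for 29161 of 29161 genes with a count (relative tolerance 0.0001). Coordinates and exons are from GENCODE release 29. Counts of 13077 genes were scaled by TMM and fitted with edgeR 4.0.16 (R 4.3.3) by the quasi-likelihood method over all genes, with 2 residual degrees of freedom, two-sided, with Benjamini-Hochberg adjustment. A standard error is the log2 fold change over the square root of F. Intervals are at 95% on the moderated degrees of freedom. Alternatives were other scalings and filters (minimum of 5 FPKM or none), DESeq2 1.42.0, limma 3.58.1 with pseudocounts of 1 and 0.1, edgeR's robust option, 1 library left out at a time, a replicate block and a loess correction for GC content (span 0.3).

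Named genes were the 9 members, REEP6, PLG, up to 4 called genes of each list by smallest p, and the 3 genes nearest to PLAU; 1 further gene the rule names is not reported here. MMP24, FURIN, ratios with PLAT or of SERPINE2 to PLAUR, and markers not called were added after their values were seen. Members and lists were chosen with earlier results of these data known.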

Additional observations from a re-analysis of the deposited data

How the results depend on the processing

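PLAU and SERPINE2 kept their direction and their call in 15 of 15 alternative settings, and 0 members were called higher in any of them. The number of members called lower was 2 as reported, 4 with FPKM scaled to equal sums, 4 with the replicate block and 5 with the GC correction, and 2 to 3 when each library was left out. Under equal sums of FPKM the median gene stood at -0.14, so values there are read relative to it. Of all genes, 3276 were called (1422 higher and 1854 lower). The counts were 1906 (634 higher) with limma on log2(FPKM + 1), 1830 (597 higher, 1233 lower) with limma on log2(FPKM + 0.1), 661 higher and 2824 lower with equal sums, and 936 higher with a minimum of 5 FPKM. Leaving out each library gave 940 to 1495 genes higher, with 940 without REEP6 replicate 1. The cause of these shifts was not tested. With the GC correction 2343 genes were called (995 higher, 1348 lower). With the replicate number as a block 6019 genes were called (2957 higher, 3062 lower). The labels do not say that equal numbers mark a shared culture, and with 2 pairs (r = 0.271 of the deviations over 13077 genes) the numbers were not taken to pair the libraries. Under that block PLAUR (-0.25, edgeR adjusted p 0.00505) and TIMP1 (-0.22, 0.00801) were also called. PLAT, MMP1 and MMP14 could be fitted only without a filter, where 20 to 38, 6 to 13 and 71 to 100 counts per library for MMP14, MMP1 and PLAT set the precision.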
